A study of Homo sapiens with 12 samples.

Results

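Expression of 8 genes of TGF-beta, activin and GDF15 signalling was read in HK-2 cells, which derive from human kidney proximal tubule epithelium and were immortalised. The genes were chosen by symbol: TGFB1, TGFB2, INHBA and GDF15, which code for secreted ligands, TGFBR1 and TGFBR2, which code for receptors, and SMAD3 and SMAD7, which code for intracellular proteins of the pathway. They are 8 of the 19775 genes that the arrays read through a probe set (a group of short probes for 1 transcript region) annotated to a single symbol. Cells received the compound named CdCl for 48 h, the control vehicle for 48 h, CdCl for 12 h or the control vehicle for 12 h, with 3 biological replicates and so 3 arrays in each of the 4 groups. All cells came from the same line and were grown in defined medium with epidermal growth factor, insulin, transferrin, selenite and hydrocortisone. The labels do not state the CdCl dose. The arrays belong to a larger study in which HK-2 cells were exposed to 9 compounds to find signatures of toxicity.

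Ligands of the TGF-beta family bind a type II receptor such as TGFBR2, which activates a type I receptor such as TGFBR1. The type I receptor phosphorylates SMAD2 and SMAD3, which enter the nucleus with SMAD4 and act on target genes, while SMAD7 is an inhibitory SMAD that is itself induced by the pathway and dampens the receptor. INHBA codes for the beta A subunit of activin A, which signals through its own type I and type II receptors to the same SMADs. GDF15 is a distant member of the family that many cells make under stress and that acts through the receptor GFRAL with RET. In the kidney, TGF-beta signalling is known for its part in tubular injury and fibrosis.

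The signals are log2 values per probe set made with GCRMA, which subtracts a background estimated from each probe's base composition and then normalises between arrays, so that a difference of 1 is a doubling. Array medians lay between 2.97 and 3.04, close to the background level, and maxima between 15.65 and 15.79. Differences were tested with limma over the 10683 genes that exceeded 4 on at least 3 of the 12 arrays, with p-values adjusted over all of them by the Benjamini-Hochberg method, and a gene is said to rise or fall where the adjusted p is under 0.05. All 8 genes passed that filter. Of 8 markers of simple and tubular epithelium, 7 exceeded 4 on every array, among them KRT8, KRT18, CDH1 and PAX8. The other, PAX2, stayed under 4 on every array. Of 6 markers of proximal tubule function, 5 stayed under 4 on every array (LRP2, CUBN, ANPEP, AQP1 and GGT1), so these 5 genes were at background. The other, MME, exceeded 4 on some arrays only. The 4 endothelial and 3 leukocyte markers also stayed under 4 on every array, as did 4 of 5 fibroblast markers, the exception being LUM. The matrix genes COL1A1 and DCN, which were outside that list, averaged at least 7.11 and 10.67 in each group. Whether fewer cells expressing a gene or less of its RNA per cell lay behind a lower signal cannot be told apart in these bulk samples.

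The promoters of the 3 genes for ligands that were higher in CdCl cells at both times are shown because each holds a TATAAA box. Each line is the 250 bases before the RefSeq start in GRCh38.p14, read on the gene's own strand, with the TATAAA box in capitals and, in TGFB2, also the sequence CACGTG. The windows are chr1:218345086-218345335 on the plus strand for TGFB2, chr7:41703091-41703340 on the minus strand for INHBA and chr19:18385908-18386157 on the plus strand for GDF15.
TGFB2: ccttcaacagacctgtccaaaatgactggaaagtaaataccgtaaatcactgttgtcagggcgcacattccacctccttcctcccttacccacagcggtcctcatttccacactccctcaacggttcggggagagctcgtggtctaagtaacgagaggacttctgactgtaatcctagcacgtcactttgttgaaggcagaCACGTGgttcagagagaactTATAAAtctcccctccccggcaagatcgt
INHBA: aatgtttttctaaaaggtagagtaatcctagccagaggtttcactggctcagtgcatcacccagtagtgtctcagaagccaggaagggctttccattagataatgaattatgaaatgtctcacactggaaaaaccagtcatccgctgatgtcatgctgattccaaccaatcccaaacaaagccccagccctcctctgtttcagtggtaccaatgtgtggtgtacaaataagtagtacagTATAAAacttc
GDF15: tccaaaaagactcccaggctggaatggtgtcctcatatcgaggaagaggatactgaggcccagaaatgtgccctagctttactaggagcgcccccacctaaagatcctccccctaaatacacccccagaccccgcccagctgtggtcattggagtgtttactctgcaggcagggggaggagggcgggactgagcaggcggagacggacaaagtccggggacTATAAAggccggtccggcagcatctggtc
TATAAA was searched on both strands and occurred in 10.7% of the 35116 promoter windows of that length in the RefSeq table. It stood at positions -29 to -24 before the start in TGFB2 and in GDF15, at -11 to -6 in INHBA and, among the other members, at -35 to -30 before 1 of 3 listed starts of SMAD7. TGFB1, TGFBR1, TGFBR2 and SMAD3 had no TATAAA in these windows and each held GGGCGG, which 42.6% of all windows and the GDF15 promoter also held. It stood before 1 of 5 listed starts of SMAD3, 1 of 2 of TGFBR2 and only some of the 8 of TGFBR1. CACGTG was found in TGFB2 and before 1 of 5 listed starts of SMAD3, against 6.34% of all windows. None of the 22 starts listed for the 8 genes held the SMAD palindrome GTCTAGAC (0.182% of all windows), the CRE sequence TGACGTCA (1.65%) or the letters TGATGCAA, searched as a composite ATF4 element (0.772%). TGANTCA, the AP-1 sequence, was found in SMAD3 alone among the 8 genes, before 1 of its 5 listed starts, and in 6.57% of all windows. These matches describe letters in a window and do not show that a factor binds there.

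With CdCl the ligand genes INHBA and TGFB2 were higher and the receptor gene TGFBR2 was lower at both times, whereas TGFB1 was lower at 12 h and higher at 48 h. At 48 h, 7 of the 8 genes changed, 4 of them higher and 3 lower, against 54.6% of all tested genes called (26.5% higher and 28% lower). At 12 h, 5 of 8 changed, 3 higher and 2 lower, against 56.4% of all tested genes (16.7% higher and 39.7% lower). The share of the 8 genes called was therefore close to the background at 12 h and 87.5% at 48 h. The 8 genes were chosen with earlier results of these data known, so these shares do not show that the pathway stood out. The groups of 3 arrays did not overlap for 7 of the 8 genes at 48 h, against 60% of all tested genes, and for 5 of 8 at 12 h, against 66.4%. The median difference over the 8 genes was 0.11 at 48 h and 0.20 at 12 h, beside -0.02 and -0.16 over all tested genes at these times. Of all calls, 70.4% were lower at 12 h, and this share was 52.1% when each array was centred on the median of the tested genes.

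**Figure D1:**
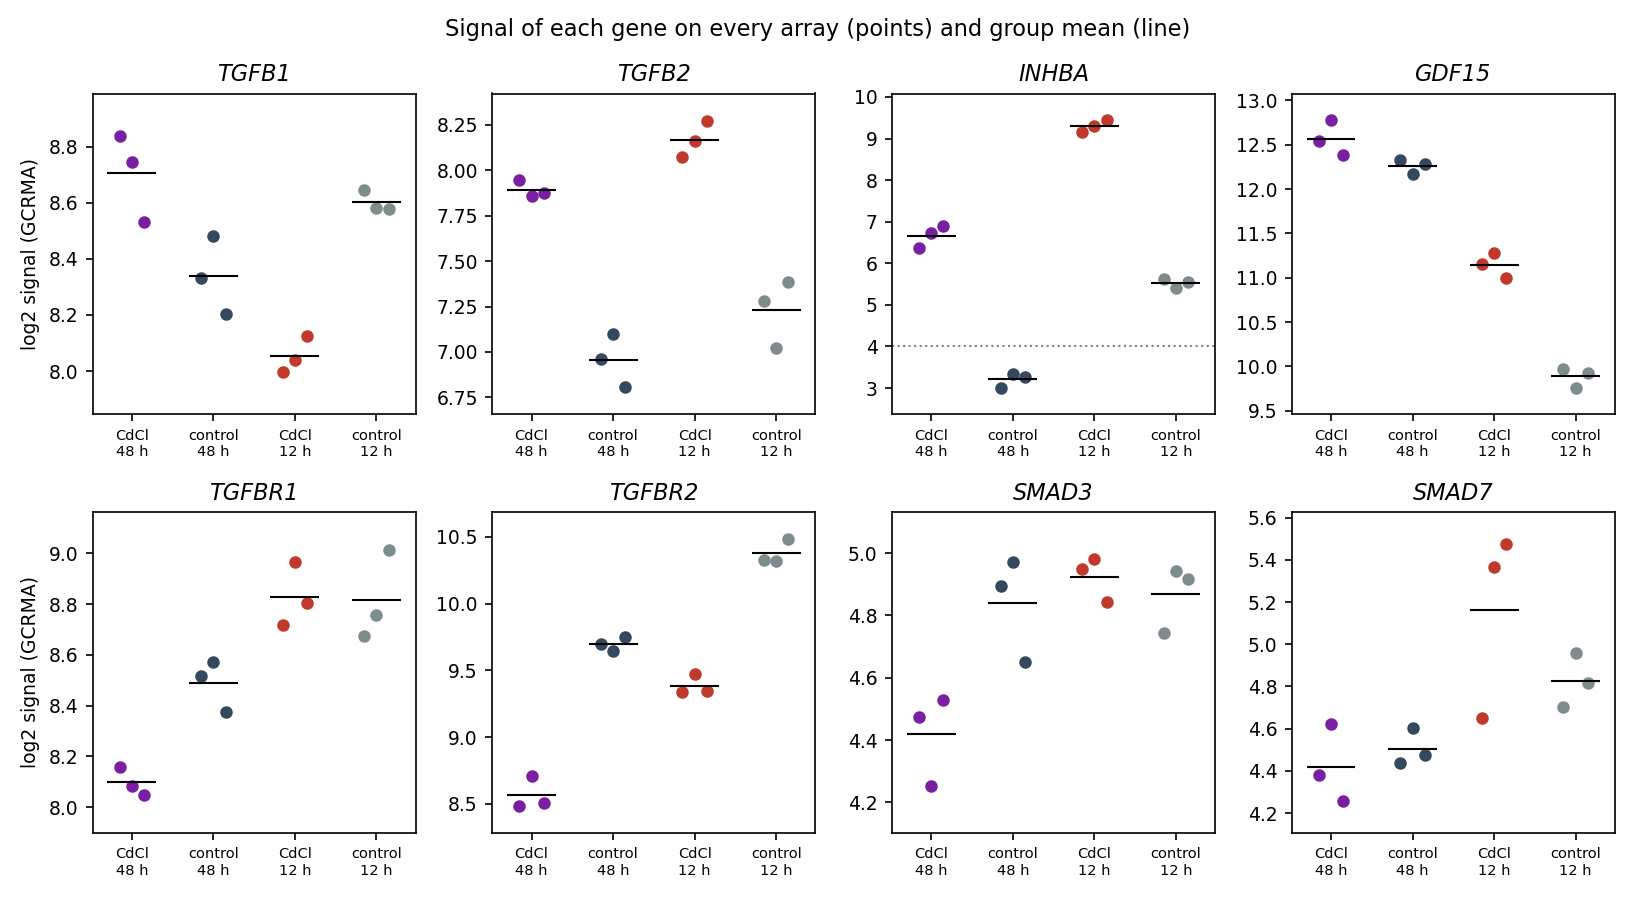
Log2 signal of each of the 8 genes on each of the 12 arrays, with CdCl 48 h, control 48 h, CdCl 12 h and control 12 h from left to right. Points are single arrays, lines are group means, each panel has its own vertical scale, and the dotted line marks the filter value of 4. INHBA and TGFB2 are higher and TGFBR2 is lower in CdCl cells at both times, with no overlap between CdCl and control arrays.

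INHBA showed the largest difference of the 8 genes. At 48 h its log2 signals were 6.36, 6.73 and 6.89 in CdCl cells, against 3.01, 3.35 and 3.26 in control cells. At 12 h they were 9.16, 9.30 and 9.44 in CdCl cells, against 5.61, 5.41 and 5.56 in control cells. The lowest CdCl array stood above the highest control array at both times, and all 3 control arrays at 48 h were under the filter value of 4. The 48 h difference was therefore at least 6.31-fold when those arrays were set to 4, and the measured difference was 3.45 ± 0.14 (SE; adjusted p = 4.3e-09). At 12 h the rise was 3.77 ± 0.14 (adjusted p = 2.3e-09), or 13.6-fold. The CdCl effect at 48 h minus that at 12 h was -0.32 as measured (adjusted p = 0.21) and -1.11 with the 48 h control arrays set to 4, so whether the effects differed could not be settled above background. A second INHBA probe set gave 3.23 ± 0.21 at 12 h and, with all 3 control arrays under 4 again, at least 3.05-fold at 48 h.

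TGFB2, a second TGF-beta isoform, was higher by almost the same amount at each time. Its signals at 48 h were 7.95, 7.86 and 7.87 in CdCl cells, against 6.96, 7.10 and 6.81 in control cells. At 12 h they were 8.07, 8.16 and 8.27 in CdCl cells, against 7.28, 7.02 and 7.39 in control cells. Every CdCl array exceeded every control array of its time. The rise was 0.94 ± 0.10 at 48 h (adjusted p = 1.4e-05) and 0.94 ± 0.10 at 12 h (adjusted p = 1.7e-05). The 95% interval of the difference between these effects ran from -0.32 to 0.32.

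TGFB1, the isoform most studied in fibrosis, moved in opposite directions at the 2 times. At 48 h its signals were 8.84, 8.75 and 8.53 in CdCl cells, against 8.33, 8.48 and 8.20 in control cells. At 12 h they were 7.996, 8.04 and 8.13 in CdCl cells, against 8.64, 8.58 and 8.58 in control cells. The arrays did not overlap at either time, although at 48 h the lowest CdCl array and the highest control array lay close together. TGFB1 rose by 0.37 ± 0.09 at 48 h (adjusted p = 0.0055) and fell by 0.55 ± 0.09 at 12 h (adjusted p = 0.00038). The difference between the 2 effects was 0.91 ± 0.13 (adjusted p = 3e-04).

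GDF15 was higher in CdCl cells at both times, and by more at 12 h. At 48 h it measured 12.55, 12.78 and 12.38 in CdCl cells, against 12.32, 12.17 and 12.29 in control cells. At 12 h it measured 11.16, 11.28 and 11.00 in CdCl cells, against 9.97, 9.76 and 9.93 in control cells. The CdCl arrays stood above the control arrays at both times, with a narrow gap at 48 h and a wide one at 12 h. GDF15 rose by 1.26 ± 0.11 at 12 h (adjusted p = 2.6e-06), or 2.39-fold. The 48 h rise was 0.31 ± 0.11 (adjusted p = 0.029), and this call did not hold when CdCl 48 h replicate 1 or 2, or control 48 h replicate 2 or 3, was left out (adjusted p = 0.052 to 0.11). The CdCl effect at 48 h was smaller than that at 12 h by a difference of -0.95 ± 0.15 (adjusted p = 0.00065). GDF15 was read from a probe set of the x_at type, whose probes may also match other transcripts.

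**Figure D2:**
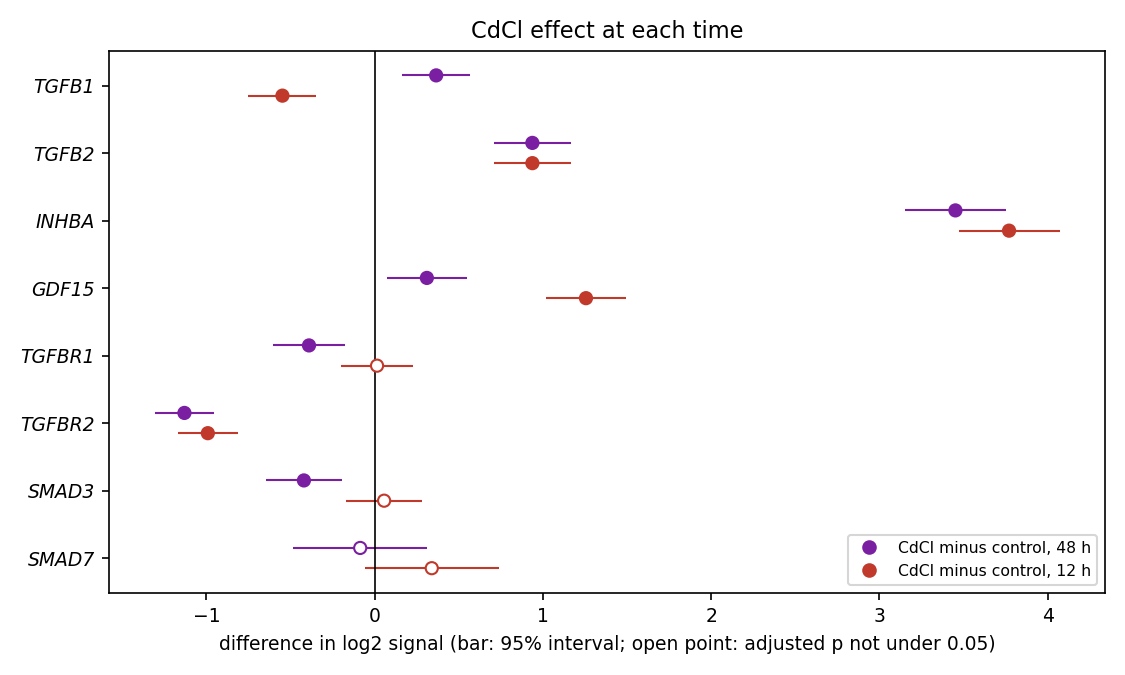
Difference in log2 signal, CdCl minus control, for the 8 genes at 48 h (upper point of each pair) and 12 h (lower point). Bars are 95% intervals from the limma fit, and open points did not pass an adjusted p of 0.05. TGFB1 lies on opposite sides of 0 at the 2 times, and the INHBA value at 48 h is set against control arrays under the filter value of 4.

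The receptor gene TGFBR2 fell at both times. At 48 h its signals were 8.48, 8.71 and 8.51 in CdCl cells, against 9.69, 9.65 and 9.75 in control cells. At 12 h they were 9.34, 9.47 and 9.35 in CdCl cells, against 10.32, 10.32 and 10.49 in control cells. No CdCl array reached the level of a control array of the same time. TGFBR2 fell by 1.13 ± 0.08 at 48 h (adjusted p = 4.2e-07), or 2.19-fold, and by 0.99 ± 0.08 at 12 h (adjusted p = 1.7e-06), or 1.99-fold. The effects at the 2 times differed by -0.14, with an adjusted p of 0.36. A second TGFBR2 probe set lay near background, with all CdCl arrays under 4. It was at least 1.54-fold lower at 48 h (adjusted p = 0.00074), and at 12 h 2 of the 3 control arrays were under 4 as well (adjusted p = 0.41).

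TGFBR1, the type I partner, fell at 48 h and did not pass the test at 12 h. Its signals at 48 h were 8.16, 8.09 and 8.05 in CdCl cells, against 8.52, 8.57 and 8.38 in control cells. At 12 h they were 8.72, 8.96 and 8.80 in CdCl cells, against 8.67, 8.76 and 9.01 in control cells, and the groups overlapped. TGFBR1 fell by 0.39 ± 0.10 at 48 h (adjusted p = 0.0055), and the 12 h difference was 0.01 with a 95% interval of -0.20 to 0.23 (adjusted p = 0.91). The difference between the effects was -0.40 ± 0.14 (adjusted p = 0.037), and it passed in 4 of the 12 fits that each left out 1 array. The call held without CdCl 48 h replicate 1, control 48 h replicate 3, CdCl 12 h replicate 1 or control 12 h replicate 3, and was lost without any other array (adjusted p = 0.056 to 0.089).

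Of the SMAD genes, SMAD3 fell at 48 h and SMAD7 passed the test at neither time. SMAD3, a receptor-activated SMAD, measured 4.47, 4.25 and 4.53 in CdCl cells at 48 h, against 4.89, 4.97 and 4.65 in control cells. At 12 h it measured 4.95, 4.98 and 4.84 in CdCl cells, against 4.74, 4.94 and 4.92 in control cells. The 48 h groups were apart, the 12 h groups overlapped, and all of these signals were little above the filter value. SMAD3 fell by 0.42 ± 0.10 at 48 h (adjusted p = 0.0044), and the 12 h difference was 0.06 ± 0.10 (adjusted p = 0.66). The difference between the effects was -0.48 ± 0.14 (adjusted p = 0.021), with adjusted p up to 0.052 when control 12 h replicate 1 or control 48 h replicate 1 or 2 was left out.

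SMAD7, the inhibitory SMAD, measured 4.38, 4.62 and 4.26 in CdCl cells at 48 h, against 4.44, 4.60 and 4.47 in control cells. At 12 h it measured 4.65, 5.37 and 5.48 in CdCl cells, against 4.70, 4.96 and 4.81 in control cells. CdCl replicate 1 at 12 h lay below all 3 controls, while the other CdCl arrays lay above them. The differences were -0.09 ± 0.18 at 48 h (adjusted p = 0.72) and 0.34 ± 0.18 at 12 h (adjusted p = 0.13). Without CdCl 12 h replicate 1, the 12 h difference was 0.60 (adjusted p = 0.0017) and the difference between the effects at 48 h and 12 h was -0.68 (adjusted p = 0.0073).

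The CdCl effect differed between the times for 4 of the 8 genes, 1 with a more positive effect at 48 h (TGFB1) and 3 with a more negative one (GDF15, TGFBR1 and SMAD3). Over all tested genes, 40.1% were called in this comparison, 27% more positive and 13% more negative. Of those calls 32.6% were negative, against 51.1% when arrays were centred on the tested genes, and their median difference was 0.13 over all tested genes and -0.36 over the 8 genes. The mean signal of the poly-A spike-in probe sets, which read RNA added to each sample in a fixed amount, was 6.61 to 6.75 on the CdCl arrays at 12 h, against 6.09 to 6.31 on the control arrays at 12 h. It averaged 6.02 in CdCl cells and 5.87 in control cells at 48 h. The part of this difference in the 12 h results was not tested.

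The 8 genes also differed between the 2 times, in control cells as well as in CdCl cells. In control cells at 48 h against 12 h, 1 gene rose and 5 fell among the 8, against 56.9% of all tested genes called (23.4% higher and 33.5% lower). In CdCl cells at 48 h against 12 h all 8 genes changed, 2 higher and 6 lower, against 62.3% of all tested genes (34.7% higher and 27.6% lower). The arrays of the 2 times did not overlap for 8 of 8 genes in CdCl cells, against 68% of all tested genes, and for 6 of 8 in control cells, against 64.6%. Each difference between CdCl and control cells given above was taken within a time.

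GDF15 made the largest rise with time. In CdCl cells it was higher by 1.43 ± 0.11 at 48 h than at 12 h (adjusted p = 4.3e-07). In control cells the rise was 2.37 ± 0.11 (adjusted p = 1.1e-08), or 5.17-fold, so the control signal at 48 h exceeded even the CdCl signal at 12 h. INHBA went the other way, with falls of 2.64 ± 0.14 in CdCl cells (adjusted p = 2.2e-08) and, in control cells, of at least 2.88-fold (adjusted p = 7.6e-08). TGFBR2 fell with time by 0.82 ± 0.08 in CdCl cells (adjusted p = 3.7e-06) and by 0.68 ± 0.08 in control cells (adjusted p = 2.2e-05), although its second probe set, with 2 of 3 control arrays at 12 h under 4, rose by 0.72 in control cells (adjusted p = 0.014). TGFB1 rose by 0.65 ± 0.09 in CdCl cells (adjusted p = 7.1e-05) and fell by 0.26 ± 0.09 in control cells (adjusted p = 0.03). The call in control cells was lost without control 48 h replicate 1 or 3 or without any 1 of the control 12 h arrays (adjusted p = 0.054 to 0.12).

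**Figure D3:**
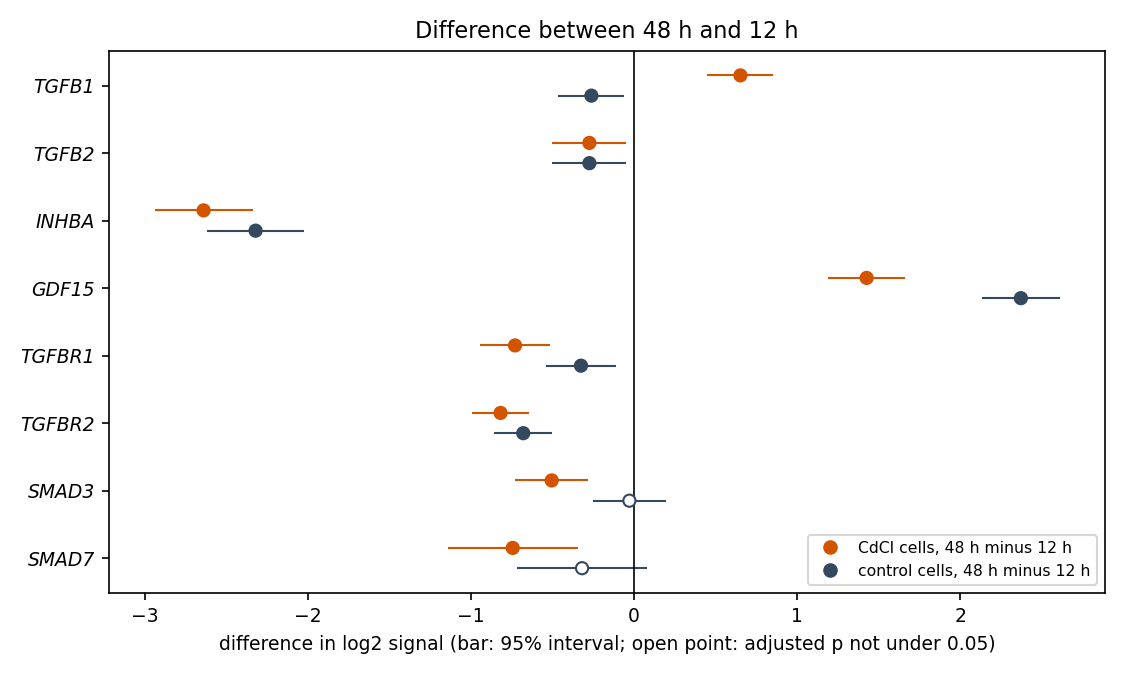
Difference in log2 signal, 48 h minus 12 h, for the 8 genes in CdCl cells (upper point of each pair) and control cells (lower point). Bars are 95% intervals, and open points did not pass an adjusted p of 0.05. GDF15 is higher at 48 h in both, INHBA and TGFBR2 are lower in both, and TGFB1 lies on opposite sides of 0.

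The remaining time differences were smaller. SMAD7 was lower at 48 h by 0.74 ± 0.18 in CdCl cells (adjusted p = 0.0037), and its difference in control cells was -0.32 ± 0.18 (adjusted p = 0.16, and 0.023 without CdCl 12 h replicate 1, whose spread enters the fit). TGFBR1 fell by 0.73 ± 0.10 in CdCl cells (adjusted p = 4.8e-05) and by 0.33 ± 0.10 in control cells (adjusted p = 0.014, but 0.057 without control 48 h replicate 3 and 0.061 without control 12 h replicate 3). SMAD3 fell by 0.51 ± 0.10 in CdCl cells (adjusted p = 0.001), and in control cells the difference was -0.03 ± 0.10 (adjusted p = 0.83). TGFB2 fell by 0.27 in both (adjusted p = 0.036 in CdCl cells and 0.04 in control cells). The call in CdCl cells was lost without CdCl 12 h replicate 2 or 3 or any 1 of the CdCl 48 h arrays (adjusted p = 0.051 to 0.12). That in control cells was lost without replicate 1 or 3 of the controls at either time, without CdCl 48 h replicate 3 and without CdCl 12 h replicate 2 (adjusted p = 0.05 to 0.15).

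Ordered by their means, the 4 groups ran differently from gene to gene. INHBA was highest in CdCl cells at 12 h, then CdCl cells at 48 h, control cells at 12 h and control cells at 48 h, with no overlap between neighbours. GDF15 ran from CdCl cells at 48 h through control cells at 48 h and CdCl cells at 12 h down to control cells at 12 h, again with no overlap. TGFBR2 was highest in control cells at 12 h, then control cells at 48 h, CdCl cells at 12 h and CdCl cells at 48 h, also with all neighbours apart. For TGFB2 the controls at 12 h and 48 h overlapped below both CdCl groups. For TGFB1, CdCl cells at 48 h overlapped control cells at 12 h, with control cells at 48 h and CdCl cells at 12 h each apart below them. TGFBR1, SMAD3 and SMAD7 each had overlapping CdCl and control arrays at 12 h at the top of the order.

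The 8 genes had 23 probe sets in all, of which 13 passed the filter, and 4 genes had more than 1 that did. All 3 TGFB2 probe sets rose at 12 h, by 0.94 to 1.48, and 2 of them rose at 48 h. The other gave 0.73 ± 0.32 at 48 h (adjusted p = 0.078) and the value of 1.48 at 12 h. Of its 3 control arrays, 2 were under 4 at each time. The second SMAD3 probe set gave -0.26 ± 0.10 at 48 h (adjusted p = 0.06) and -0.02 at 12 h. All its CdCl and control arrays at 48 h were under 4.

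**Figure D4:**
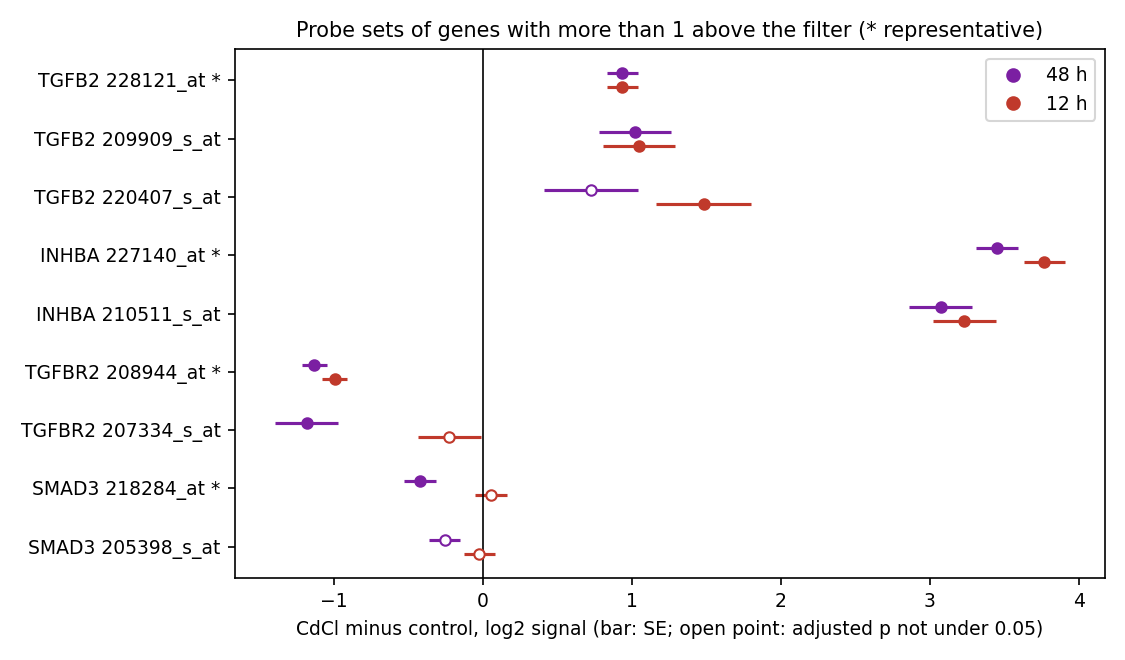
Difference in log2 signal, CdCl minus control, for each probe set above the filter of the 4 genes with more than 1, at 48 h (upper point) and 12 h (lower point). Bars are standard errors, open points did not pass an adjusted p of 0.05, and the asterisk marks the probe set with the highest mean signal. All probe sets of TGFB2 and INHBA lie above 0. The INHBA values at 48 h and both values of the second TGFBR2 probe set rest on a group with all arrays under 4. For the second SMAD3 probe set at 48 h, all arrays of both groups were under 4.

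Beyond the 8 genes, 76 further genes of the pathway were read in 7 lists by role, of which 70 had a probe set with a single symbol and 53 passed the filter. At 48 h, 15 of the 53 rose, 25 fell and 13 did not pass the test, with a median difference of -0.17, beside 26.5% higher and 28% lower over all tested genes. At 12 h, 19 rose, 14 fell and 20 did not pass, with a median of 0.03, beside 16.7% higher and 39.7% lower over all tested genes. These shares are the background for each list below, and the lists too were chosen with earlier results of these data known. Among the 53 genes, 10 rose at both times, 10 fell at both and 7 rose at 12 h and fell at 48 h. Only LTBP4 fell at 12 h and rose at 48 h. Its other probe set passed at neither time (-0.31 at 12 h and 0.33 at 48 h, adjusted p = 0.089 and 0.079). The share of all tested genes with each of these joint patterns was not computed, so these counts have no background beside them. Of the genes read, 17 stayed under the filter, among them TGFB3, INHBB, ENG and FST.

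The other ligand genes tested were INHBE, which codes for the activin beta E subunit, BMP2 and GDF11. At 48 h, 2 of these 3 fell and at 12 h 2 rose and 1 fell. INHBE averaged 11.22 ± 0.05 in CdCl cells and 12.32 ± 0.04 in control cells at 48 h (SD, n = 3 each), a fall of 1.10 (adjusted p = 1.1e-06). At 12 h it averaged 7.91 ± 0.19 in CdCl cells and 7.05 ± 0.05 in control cells, a rise of 0.86 (adjusted p = 1e-05). Its 48 h arrays all stood above its 12 h arrays in both CdCl and control cells, as did those of GDF15. BMP2 rose by 0.93 ± 0.13 at 12 h (adjusted p = 0.00012) and fell by 0.34 ± 0.13 at 48 h, where the adjusted p was 0.048. That 48 h call was lost without any 1 of the arrays except CdCl 48 h replicate 1 and control 48 h replicate 3, and the difference was -0.18 without CdCl 48 h replicate 2 (adjusted p = 0.19). GDF11 fell by 0.71 ± 0.18 at 12 h (adjusted p = 0.0051), and 1 of its 2 other probe sets did not pass there (-0.39, adjusted p = 0.074).

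No other receptor gene tested rose at either time. At 48 h, 6 of 7 fell, against 28% of all tested genes, and the median was -0.52. At 12 h, 3 of 7 fell, near the 39.7% of all tested genes that were lower, and the median was -0.23. BMPR2, a type II receptor for bone morphogenetic proteins, averaged 8.14 ± 0.07 in CdCl cells and 9.13 ± 0.09 in control cells at 48 h, a fall of 0.99 (adjusted p = 9.8e-07). It fell by 0.51 ± 0.08 at 12 h (adjusted p = 0.00019), where its other probe sets did not pass the test. BMPR1B, a type I receptor, fell by 1.01 ± 0.12 at 48 h (adjusted p = 2e-05) and by 0.51 ± 0.12 at 12 h (adjusted p = 0.003). Its other probe set gave -0.44 at 48 h (adjusted p = 0.04) and did not pass at 12 h (-0.13, adjusted p = 0.52). ACVR2A, an activin type II receptor, fell by 0.59 ± 0.16 at 48 h (adjusted p = 0.0077) and by 0.92 ± 0.16 at 12 h (adjusted p = 0.00045), although its second probe set gave 0.03 at 12 h.

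Of 5 other SMAD genes, 4 fell at 48 h, against 28% of all tested genes, and 3 fell at 12 h, against 39.7%, and none rose. SMAD6, the inhibitory SMAD of the bone morphogenetic protein branch, averaged 6.20 ± 0.20 in CdCl cells and 7.31 ± 0.20 in control cells at 48 h, a fall of 1.10 (adjusted p = 3.5e-05). SMAD1, a receptor-activated SMAD of the same branch, fell by 0.81 ± 0.12 at 48 h (adjusted p = 0.00011) and by 0.76 ± 0.12 at 12 h (adjusted p = 0.00019). SMAD5 fell by 0.74 ± 0.11 at 48 h (adjusted p = 0.00011). At 12 h SMAD5 fell by 0.31 ± 0.11 (adjusted p = 0.027), but another of its probe sets rose by 0.73 (adjusted p = 0.006). The SMAD5 call at 12 h was lost without CdCl 12 h replicate 2 or 3 or control 12 h replicate 2 or 3 (adjusted p = 0.055 to 0.1). SMAD2 fell by 0.24 ± 0.09 at 12 h (adjusted p = 0.035), with 1 of 3 other probe sets not passing (-0.11, adjusted p = 0.49). That SMAD2 call was lost without CdCl 12 h replicate 1 or 2 or control 12 h replicate 1 or 2 (adjusted p = 0.091 to 0.12) and with arrays centred on the tested genes (0.39).

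Of 7 genes for latency and activation of TGF-beta, 3 fell and 1 rose at 48 h, and 4 fell and 1 rose at 12 h. ITGB8, the beta subunit of an integrin that frees TGF-beta from its latent complex, averaged 10.48 ± 0.16 in CdCl cells and 11.96 ± 0.35 in control cells at 48 h, a fall of 1.49 (adjusted p = 4.4e-06). At 12 h ITGB8 was the gene of this list that rose, by 0.42 ± 0.14 (adjusted p = 0.025). LTBP3, which codes for a latent TGF-beta binding protein, fell by 0.73 ± 0.18 at 48 h (adjusted p = 0.0045) and by 0.70 ± 0.18 at 12 h (adjusted p = 0.0056). Its other probe set passed at neither time (-0.12 at 48 h and -0.13 at 12 h, adjusted p = 0.38 and 0.36). Of the same family, LTBP2 fell by 0.64 ± 0.17 (adjusted p = 0.0069) and LTBP4 by 0.63 ± 0.12 (adjusted p = 0.00096) at 12 h, where the other LTBP4 probe set did not pass (-0.31, adjusted p = 0.089). THBS1, which codes for an activator of latent TGF-beta, fell by 0.71 ± 0.11 at 48 h (adjusted p = 0.00027). Another of its probe sets rose by 0.65 at 48 h (adjusted p = 0.021). At 12 h THBS1 fell by 0.38 ± 0.11 (adjusted p = 0.014), where its other probe sets did not pass.

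**Figure D5:**
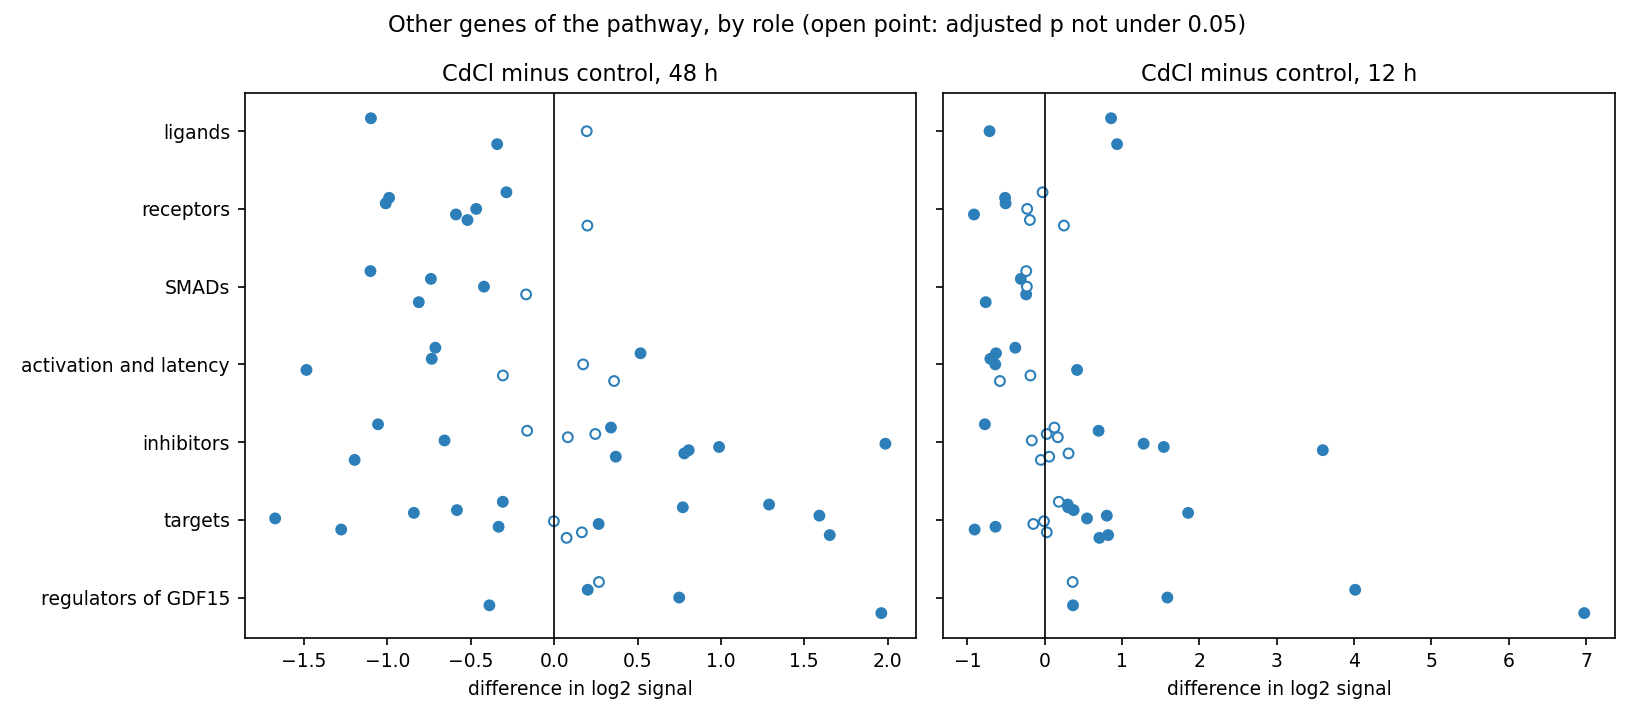
Difference in log2 signal, CdCl minus control, for the 53 further pathway genes that passed the filter, grouped by role, at 48 h (left) and 12 h (right). Each point is 1 gene, open points did not pass an adjusted p of 0.05, and the 2 panels have different horizontal scales. Receptor and SMAD genes lie mostly below 0 at 48 h, and the highest values at 12 h belong to regulators of GDF15.

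Among 12 tested inhibitors, 6 rose and 3 fell at 48 h, and 4 rose and 1 fell at 12 h. PMEPA1, a target of the pathway that restrains SMAD activation, averaged 8.55 ± 0.08 in CdCl cells and 6.57 ± 0.13 in control cells at 48 h, a rise of 1.99 or 3.96-fold (adjusted p = 4.3e-09). At 12 h PMEPA1 rose by 1.28 ± 0.08 (adjusted p = 1.9e-07). GREM1, a secreted antagonist of bone morphogenetic proteins, averaged 11.25 ± 0.29 in CdCl cells and 7.66 ± 0.20 in control cells at 12 h, a rise of 3.60 or 12.1-fold (adjusted p = 2.9e-09). At 48 h GREM1 rose by 0.81 ± 0.13 (adjusted p = 0.00035). NEDD4L, a ubiquitin ligase for SMAD2 and SMAD3, rose by 1.54 ± 0.08 at 12 h (adjusted p = 3.3e-08). At 48 h NEDD4L rose by 0.99 ± 0.08 (adjusted p = 8.8e-07), where another of its probe sets did not pass (0.14, adjusted p = 0.39). In the other direction at 48 h, BAMBI, a decoy receptor, fell by 1.20 ± 0.09 (adjusted p = 9.9e-07). TGIF2, a repressor that binds SMADs, fell by 1.06 ± 0.19 at that time (adjusted p = 0.00065). TGIF2 also fell by 0.77 ± 0.19 at 12 h (adjusted p = 0.0048).

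Genes known as targets of the pathway were divided. Of 14, 5 rose and 6 fell at 48 h, with a median of 0.04, and 8 rose and 2 fell at 12 h, with a median of 0.30. The 6 that fell at 48 h include ID3, whose signals were under 4 in both groups. CDKN2B, a cell cycle inhibitor induced by TGF-beta, averaged 6.61 ± 0.04 in CdCl cells and 4.96 ± 0.30 in control cells at 48 h, a rise of 1.65 (adjusted p = 3.3e-06), and rose by 0.82 ± 0.15 at 12 h (adjusted p = 0.00075). The ID genes, which code for inhibitors of DNA binding, moved apart at 48 h, where ID2 rose by 1.59 ± 0.16 (adjusted p = 6.3e-06) and ID1 fell by 1.67 ± 0.12 (adjusted p = 4.2e-07). At 12 h ID1 rose by 0.55 ± 0.12 (adjusted p = 0.0022) and ID2 by 0.80 ± 0.16 (adjusted p = 0.0012). ID3 rose by 1.85 ± 0.30 at 12 h (adjusted p = 0.00027). COL4A1, a basement membrane collagen, fell by 0.91 ± 0.12 at 12 h (adjusted p = 5e-05). At 48 h it fell by 1.28 ± 0.12 (adjusted p = 2.8e-06).

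The transcription factor genes ATF4, DDIT3, ATF3, EGR1 and CEBPB were read as regulators of GDF15. Of these 5, 3 rose and 1 fell at 48 h, and 4 rose at 12 h. ATF3, a stress-induced transcription factor, averaged 11.13 ± 0.02 in CdCl cells and 9.17 ± 0.11 in control cells at 48 h, a rise of 1.96 (adjusted p = 2e-06). At 12 h it averaged 10.86 ± 0.06 in CdCl cells and 3.88 ± 0.45 in control cells, with 2 of the 3 control arrays under 4, a rise of 6.98 (adjusted p = 9.2e-11). DDIT3, the CHOP transcription factor of the endoplasmic reticulum stress response, averaged 11.50 ± 0.11 in CdCl cells and 7.48 ± 0.07 in control cells at 12 h, a rise of 4.01 or 16.2-fold (adjusted p = 1.5e-11). Its 48 h means were 12.93 ± 0.07 in CdCl cells and 12.73 ± 0.07 in control cells. CEBPB, a transcription factor of the same response, rose by 0.75 ± 0.06 at 48 h (adjusted p = 9.5e-07) and by 1.59 ± 0.06 at 12 h (adjusted p = 2.8e-09). ATF4 fell by 0.39 ± 0.06 at 48 h (adjusted p = 0.00032) and rose by 0.36 ± 0.06 at 12 h (adjusted p = 0.00052). In control cells, 4 of the 5 regulators were higher at 48 h than at 12 h, against 23.4% of all tested genes. None was lower, against 33.5%. A link between these regulators and GDF15, which also rose, was not tested.

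For each of the 8 genes, the 2 most similar genes were taken by Pearson correlation of the log2 signal over the 12 arrays, which share their 4 groups. GDF15 was closest to LRATD2 (r = 0.9931) and SDF2L1 (r = 0.9926), and SDF2L1 averaged 12.13 in CdCl cells and 11.24 in control cells at 48 h, and 9.37 in CdCl cells and 7.15 in control cells at 12 h. INHBA was closest to DNTTIP2 (0.9922) and MRPL18 (0.991), and TGFBR2 to NIN (0.9903) and MINPP1 (0.9892). TGFB2 was closest to SLAIN2 (0.9809) and to CXCL5 (0.9801), a chemokine gene. The likeness was lower for TGFBR1 (NUP153, 0.9618, and SFPQ, 0.9585), TGFB1 (ARPC1B, 0.9504, and GANAB, 0.9465), SMAD3 (PIK3R1, 0.9443, and LGR4, 0.9337) and SMAD7 (DESI2, 0.9315, and C1orf198, 0.9267). Within the 8 genes, TGFB2 and INHBA were the pair with the highest correlation (0.929). These values describe 4 groups of 3 arrays and carry no test.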

How the data were processed

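RNA of HK-2 cells was measured on 12 Affymetrix arrays with 54675 probe sets. The authors deposited a log2 signal for each probe set and array, made with GCRMA per the submitters' processing notes, which name no version. These signals were not transformed further. Of the probe sets, 41091 carried 1 gene symbol in the platform annotation, 1801 several and 11783 none. Each of 19775 genes was read from its brightest probe set, by the mean of all 12 arrays, and kept if above 4 on at least 3 arrays.

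A model of 4 group means was fitted in R 4.3.3 by limma 3.58.1, using lmFit and eBayes without a replicate block. CdCl was compared with control at each time, the 2 effects with each other, and 48 h with 12 h within each treatment, 5 comparisons in all, each adjusted by Benjamini-Hochberg over 10683 genes. Where all 3 arrays of a group were under 4, they were set to 4 and the fold is given as "at least". The code was tested on simulated data. Further genes were read in 7 role lists, and the text names up to 3 called genes with the largest difference per list at each time, plus the 2 genes most correlated with each member. Members and lists were chosen with earlier results of these data known. Alternatives were another filter, scaling, prior, probe set summary, replicate block or sample set. Promoter sequences are from RefSeq (GRCh38.p14), and protein sequences were not used here. The number of arrays limits the precision.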

Additional observations from a re-analysis of the deposited data

Results flagged for a closer look

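The CdCl effect at 48 h minus that at 12 h was taken on the log2 scale. It passed the test of the difference itself for 4 of the 8 genes, against 40.1% of all tested genes. It was 0.91 for TGFB1, -0.95 for GDF15, -0.40 for TGFBR1 and -0.48 for SMAD3. The second SMAD3 probe set, with signals near or under 4, gave -0.23 (adjusted p = 0.24).

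In the same comparison, 10 of the 53 list genes were called more positive at 48 h and 20 more negative. Over all tested genes these shares were 27% and 13%. The same test also passed for further pathway genes named in the report, each read from its brightest probe set. The other probe set of BMPR1B (adjusted p = 0.32) and that of ID2 (0.069) did not pass it. For BMPR2, SMAD5, GDF11, NEDD4L and PMEPA1, some of the other probe sets passed and some did not. Among ligands the difference between the effects was -1.96 for INHBE, -1.28 for BMP2 and 0.91 for GDF11. Among receptors it was -0.50 for BMPR1B and -0.48 for BMPR2, and among SMADs -0.43 for SMAD5 and -0.86 for SMAD6. Among genes of latency and activation it was 0.81 for LTBP2, 1.15 for LTBP4 and -1.90 for ITGB8. Inhibitors differed by -2.79 (GREM1), -0.55 (NEDD4L), 0.71 (PMEPA1) and -1.15 (BAMBI). Targets differed by -2.69 (ID3, with signals under 4 at 48 h in both groups), -2.22 (ID1), 0.79 (ID2) and 0.83 (CDKN2B). Regulators of GDF15 differed by -5.01 (ATF3, with 2 of 3 control arrays at 12 h under 4), -3.81 (DDIT3), -0.84 (CEBPB) and -0.75 (ATF4). The CdCl effect was thus more positive at 12 h for 4 of the 5 regulators tested, against 13% of all tested genes. EGR1 did not pass (-0.09, adjusted p = 0.75). A link between these regulators and GDF15 was not tested.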

How the results depend on the processing

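The number of the 8 genes called was 7 at 48 h and 5 at 12 h. Leaving out 1 array at a time gave 6 to 7 at 48 h, 5 to 6 at 12 h, 2 to 5 (against 4) for the difference between the effects, 3 to 7 (against 6) for time in control cells and 7 to 8 (against 8) for time in CdCl cells. The count for the difference between the effects was 2 without control 12 h replicate 1 or control 48 h replicate 1 or 2, and that for time in control cells was 3 without control 12 h replicate 3 or control 48 h replicate 3. Taking the mean of all probe sets of a gene gave 2 for time in control cells, and centring on the tested genes, chosen after seeing the data, gave 4; the cause was not tested. The 48 h rise of GDF15 also did not pass without a filter (adjusted p = 0.06), with quantile scaling (0.063), with the mean of all probe sets (0.059) or on the compared arrays alone (0.054). SMAD7 at 12 h passed with centring on the tested genes (0.49, adjusted p = 0.039). The replicate numbers did not pair the samples: 3 of 18 same-numbered pairs had deviations correlated above 0.1, and 10 of 36 comparisons favoured the sample's own number. With the replicate block 7 genes were called at 48 h, 5 at 12 h, 3 for the difference between the effects, 5 for time in control cells and 7 in CdCl cells.

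Some values changed sign, among them the called falls of TGFB2 (-0.27) and TGFBR2 (-0.68) over time in control cells. With 1 array left out at a time, the ranges were -0.055 to 0.11 for TGFBR1 at 12 h, -0.0054 to 0.097 for SMAD3 at 12 h, -0.078 to 0.10 for TGFB2 between the effects and -0.095 to 0.065 for SMAD3 over time in control cells. With centring on the tested genes SMAD3 over time in control cells was 0.049. With another probe set alone, SMAD3 at 12 h was -0.022. For time in control cells, TGFB2 was 0.22 with another probe set alone, in which only 1 control array exceeded 4 at each time. TGFBR2 was 0.72 with another probe set alone and 0.021 with the mean of its probe sets. With the mean of all probe sets SMAD5 at 12 h was 0.022. For the 8 genes, 763 of the alternative values kept direction and call, 55 lost the call, 7 gained it and 17 changed sign.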
